A study of Mus musculus with 2 samples.

Results

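The genes described here encode the enzymes that break glucose down to pyruvate and lactate, the enzymes that rebuild glucose, the pyruvate dehydrogenase complex and its kinases, the enzymes of glycerol use and those of the pentose phosphate pathway. They were taken by name, as 49 genes without transporters, and 43 of them had a probe set annotated to that gene alone on the array. Those 43 genes were read by 85 of the 22690 probe sets, and 35 of them were bright enough to be compared, among 8092 compared genes in all. Hk3, Gpi1, Pfkfb1, Pfkfb4, Eno1 and G6pdx were not analysed here. The set was chosen by function, but selected on a view of the UBR2-/- over wild type ratios of these same arrays, so their counts and medians are descriptions of the arrays and no independent evidence.

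Testes of UBR2-/- mice, which lack the ubiquitin ligase UBR2 of the N-end rule pathway, were compared with testes of wild type mice. Mice of both genotypes had a mixed 129SV and C57BL background and were 17 days old, when the first wave of germ cells is passing through meiotic prophase. Each genotype was measured on 1 Affymetrix mouse genome 430A 2.0 array, and the labels name 2 testes from different mice for each, collected within a litter. The sources used here do not give how the UBR2-/- allele was made or whether testes shared an RNA pool. A testis holds germ cells together with Sertoli, Leydig, peritubular myoid and other somatic cells, so the signals are those of a mixture, in which fewer cells of a type and less RNA per cell cannot be told apart.

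Glycolysis turns glucose into pyruvate through a chain of enzymes, and lactate dehydrogenase or the pyruvate dehydrogenase complex takes the pyruvate on. Male germ cells are known for carrying their own versions of several of these enzymes: Ldhc, Pgk2, Pdha2, Gapdhs and Gk2 are used mainly in spermatocytes, spermatids and sperm, beside general relatives used in most cells. Pgk1 and Pdha1, the general forms of phosphoglycerate kinase and of the pyruvate dehydrogenase alpha subunit, lie on the X chromosome, which is silenced in pachytene spermatocytes, whereas Pgk2, Pdha2 and Gk2 are autosomal copies. Sertoli cells are known to supply meiotic germ cells with lactate.

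Since n = 1 array stood for a genotype, differences had no replicate check and no test and describe these 2 arrays. Signals are linear MAS5 intensities per probe set, on the authors' scale. A floor was set at the 40th percentile of each array, 24.7 on the UBR2-/- array and 24.4 on the wild type array, and signals under it were set to it, after which the log2 ratio of UBR2-/- over wild type was taken. A gene is represented by its brightest probe set. Disagreement between the 2 brightest probe sets of a gene gave an SD per probe set of 0.24 (log2 ratio) at dim, 0.18 at intermediate and 0.13 at bright signals, in which error between arrays or animals has no part. Ubr2 itself had a signal of 14.3 on the UBR2-/- array, against 57.2 on the wild type array, which is at least 2.32-fold lower by 1 probe set. The sources used here do not say where it lies relative to the deleted part.

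Signals of most germ cell forms, and of a few other enzymes, were far lower in UBR2-/- testes, whereas most general enzymes lay close to the bulk of all genes. At least 2-fold lower were 8 of the 35 compared members (Fbp1, Pgam2, Gk2, Ldhc, Pgk2, Ldha, Pfkp and Eno3), 1 was at least 2-fold higher (Tktl1) and 26 lay between. Over all 8092 compared genes 3.52% were at least 2-fold lower and 0.346% at least 2-fold higher. The median log2 ratio of the members was 0.08 and that of all compared genes 0.07, with quartiles of -0.88 and 0.29 for the members and -0.17 and 0.28 for all genes. The median of the members was thus close to that of all genes, and their lower quartile lay farther down. Scaling on the spike-in controls took 14 members with log2 ratios of 0.07 to 0.34 (among them Hk2, Pfkl, Aldoa, Pgk1, Pgam1, Pkm, Ldhb and Tkt) below 0. Under array median scaling and quantile normalization 0 members changed sign, and under loess 1 did (Gpd1). At the threshold, Eno3 was just inside at -1.14 and Pdha2 just outside at -0.93 on the lower side, and on the higher side Tktl1 at 1.44 was followed by Pck2 at 0.58.

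**Figure D1:**
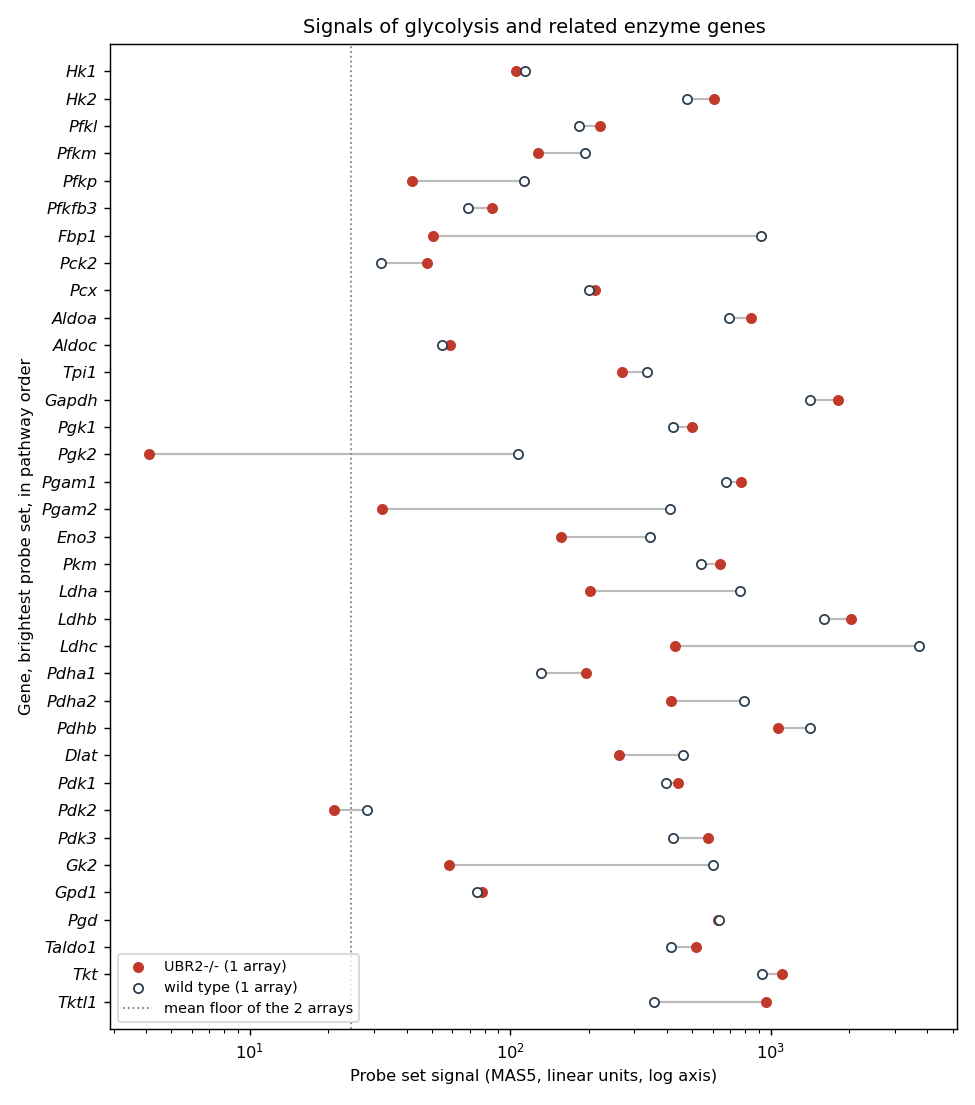
Signal of the brightest probe set of each compared member (log axis, linear MAS5 units), with filled points for the UBR2-/- array and open points for the wild type array, joined by a line, and a dotted line at the mean floor. Long lines to the left mark Fbp1 (50.5 against 915.9), Pgam2 (32.3 against 409.6), Gk2 (58 against 603.2), Ldhc (430.5 against 3709.3) and Pgk2 (4.1 against 107.4), and Tktl1 is the 1 long line to the right (962.6 against 355.7).

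The members were then followed along the pathway. Hexokinase, which traps glucose in the cell as its phosphate, was read through Hk1 and Hk2. Hk2 had a signal of 605.3 on the UBR2-/- array, against 477.8 on the wild type array, a log2 ratio of 0.34. Hk1, whose gene also makes germ cell transcripts, had 105.6 in UBR2-/- and 113.9 in wild type testes, a log2 ratio of -0.11 by its brightest probe set and -0.56 by the other, where the UBR2-/- signal of 23.4 was below the floor and the wild type signal was 36.5. Neither gene was near the 2-fold threshold.

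Phosphofructokinase, the main control point of glycolysis, is built from liver, muscle and platelet type subunits, and these lay on different sides. Pfkp, the platelet type subunit, had 41.8 in UBR2-/- testes against 112.8 in wild type testes and was 2.70-fold lower. Its other probe set was below the floor on both arrays. Pfkm, the muscle type, had 127.5 in UBR2-/- against 193.6 in wild type testes and was 1.52-fold lower, whereas Pfkl, the liver type, had 220.6 against 183.7 and a log2 ratio of 0.26, with 0.19 in its second probe set. The log2 ratios thus ran from -1.43 for Pfkp over -0.60 for Pfkm to 0.26 for Pfkl. The PFKFB enzymes make and remove the sugar bisphosphate that activates phosphofructokinase. Pfkfb3 had 85 in UBR2-/- and 69 in wild type testes, a log2 ratio of 0.30, and Pfkfb2 was below the floor on both arrays in each of its 3 probe sets.

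Fbp1, a fructose bisphosphatase of gluconeogenesis that reverses the phosphofructokinase step, was the member with the lowest ratio. It had 50.5 in UBR2-/- testes against 915.9 in wild type testes and was 18.1-fold lower, with a log2 ratio of -4.18 that ranked 2 from the lowest among the 8092 compared genes. With the floor at the 60th percentile its log2 ratio was bounded at -3.36. Its relative Fbp2, the muscle form, had 3.5 and 1.4, below the floor on both arrays. The other enzymes of gluconeogenesis were dim or lay between the thresholds: Pck1, the cytosolic phosphoenolpyruvate carboxykinase, had 8.2 in UBR2-/- and 8.5 in wild type testes, below the floor. Its mitochondrial relative Pck2 had 47.8 in UBR2-/- against 31.9 in wild type testes, a log2 ratio of 0.58 at dim signals. Pcx, the pyruvate carboxylase gene, had 211.7 against 200.4, a log2 ratio of 0.08, and its probe sets above the floor ranged from -0.25 to 0.08. Fbp1 was read by 1 probe set.

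Aldolase and triose phosphate isomerase split the sugar and lead it on, and here no member was beyond 2-fold. Aldoa had 837.5 in UBR2-/- and 689.2 in wild type testes, a log2 ratio of 0.28, with 0.22 to 0.48 over its 4 probe sets. Aldoc had 58.8 against 54.7, a log2 ratio of 0.10. Tpi1 lay on the other side, with 269.1 in UBR2-/- against 333.8 in wild type testes, and its 3 probe sets gave -0.38 to -0.31.

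In the lower part of glycolysis, which yields ATP, 3 of 7 compared enzymes passed the lower 2-fold line, beside 3.52% of all compared genes. The other 4 lay above the all-gene median, and the summed signal of the 7 was 3916.9 in UBR2-/- against 3906.9 in wild type testes. Pgk2, the phosphoglycerate kinase of germ cells, had 4.1 in UBR2-/- testes, below the floor, against 107.4 in wild type testes, and was at least 4.35-fold lower, a bound of -2.12 on the log2 scale that became -3.66 with the floor at the 25th percentile. Pgam2, a phosphoglycerate mutase known from muscle and from germ cells, had 32.3 against 409.6 and was 12.7-fold lower, a log2 ratio of -3.66 that was bounded at -2.19 with the floor at the 60th percentile. Eno3, the muscle enolase, had 156.2 against 344.8 and was 2.21-fold lower. Each of these 3 genes was read by 1 probe set.

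The general enzymes of the same steps gave Gapdh 1818.8 in UBR2-/- against 1414 in wild type testes, a log2 ratio of 0.36, Pgam1 767.1 against 671.4, a log2 ratio of 0.19, and Pkm, the pyruvate kinase of most tissues, 638.8 against 538, a log2 ratio of 0.25. Gapdh was read by the array's 3 control probe sets, which gave 0.36 to 0.42, and its 2 probe sets annotated to several genes were not used. Pgk1 had 499.6 in UBR2-/- and 421.7 in wild type testes, a log2 ratio of 0.24, and its 3 probe sets disagreed, from -0.12 to 0.42. Gapdhs, the glyceraldehyde phosphate dehydrogenase of the sperm tail, had 14.4 and 6.2, below the floor on both arrays, as had Eno2, the neuronal enolase, at 11.9 and 8.2, and Pklr, the liver pyruvate kinase, at 5 and 8.7 by its brightest probe set.

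As Pgam2 and Eno3 are best known from skeletal muscle, muscle markers were read beside them. Of 10 muscle markers 9 were too dim to be compared, among them Ckm, the muscle creatine kinase, at 16.8 in UBR2-/- and 2.7 in wild type testes, and the muscle actin Acta1 at 9.1 and 1.9. The only muscle marker above the floor was Actn3, with 142 in UBR2-/- and 142.7 in wild type testes.

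**Figure D2:**
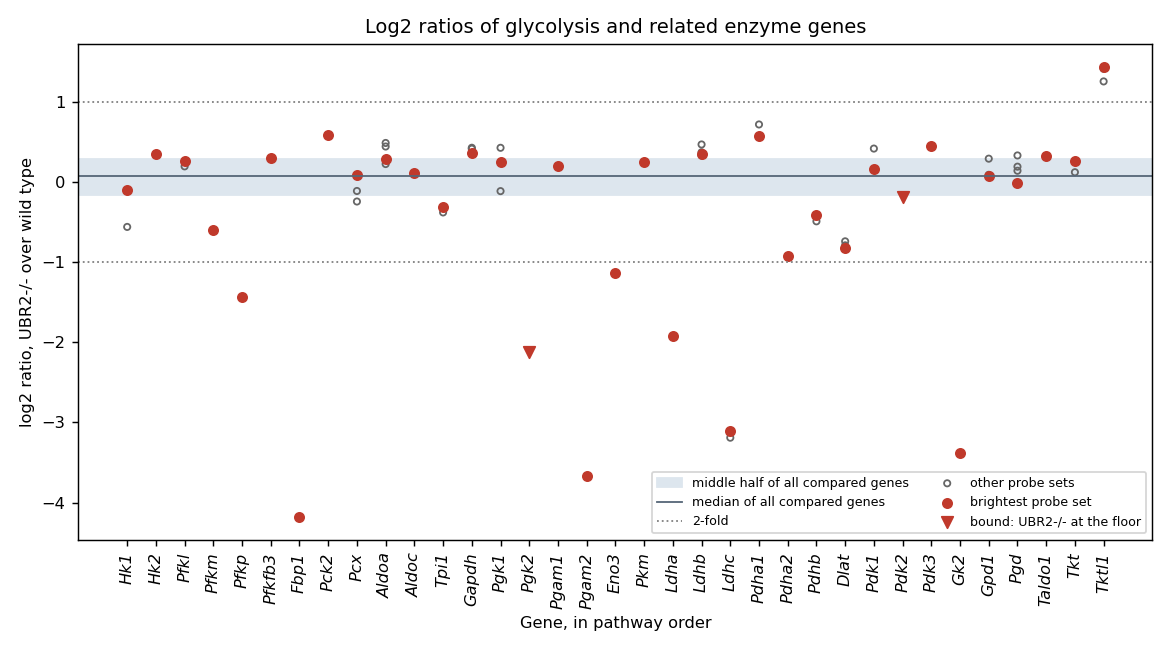
Log2 ratio of UBR2-/- over wild type for each compared member in pathway order. Filled points are the brightest probe sets, open points the other probe sets above the floor on at least 1 array, triangles bounds where the UBR2-/- signal was at the floor, the band the quartiles of all compared genes (-0.17 to 0.28), the line their median, and dotted lines 2-fold. Fbp1 (-4.18), Pgam2 (-3.66), Gk2 (-3.38) and Ldhc (-3.11) lie farthest below, and Tktl1 (1.44) alone lies above 2-fold.

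Lactate dehydrogenase, which converts pyruvate and lactate into each other, showed a split within 1 family. Ldhc, the germ cell form, had 430.5 in UBR2-/- testes against 3709.3 in wild type testes by its brightest probe set, and 350.6 against 3201.9 by the other, which makes it 8.62-fold lower or -3.11 and -3.19 on the log2 scale. Ldha, the form typical of muscle, was also lower, with 202 in UBR2-/- against 764.1 in wild type testes, or 3.78-fold. Ldhb, the heart form, lay on the other side: its 4 probe sets gave 0.33 to 0.46, with 2037.6 in UBR2-/- against 1605.5 in wild type testes for the brightest. Ldha was thus the 1 general relative that went with its germ cell form. It was read by a single probe set, whose name ends in _a_at, a class of probe sets that can bind several transcripts.

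The stretches before the transcription starts of Ldhc, Ldha, Pgk2 and Gk2 are shown because these genes were lower together and differ in what they hold there. Each is the 120 bases before a start listed by RefSeq (GRCm38.p6), written 5′ to 3′ on the gene's strand. Ldhc and Ldha each have a second listed start, not shown, whose 120 bases hold none of the motifs marked here. Capitals mark TGACG, the core of the cyclic AMP response element bound by CREB and CREM factors, CNGTTG, a form of the MYB motif, and GTTGCC, a core of the RFX motif, on either strand.
Ldhc (chr7:46861143-46861262, + strand): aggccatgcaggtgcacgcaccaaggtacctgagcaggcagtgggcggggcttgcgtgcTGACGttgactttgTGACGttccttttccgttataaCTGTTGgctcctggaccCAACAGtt
Ldha (chr7:46845684-46845803, + strand): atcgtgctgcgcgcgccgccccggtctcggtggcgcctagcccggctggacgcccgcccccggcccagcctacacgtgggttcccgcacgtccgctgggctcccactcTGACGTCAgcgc
Pgk2 (chr17:40208610-40208729, - strand): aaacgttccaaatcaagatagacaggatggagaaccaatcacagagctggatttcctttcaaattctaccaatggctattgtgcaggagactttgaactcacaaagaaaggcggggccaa
Gk2 (chr5:97457024-97457143, - strand): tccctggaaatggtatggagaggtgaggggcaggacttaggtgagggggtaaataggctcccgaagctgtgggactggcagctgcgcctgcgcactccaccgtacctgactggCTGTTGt

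Within these windows Ldhc held 2 copies of TGACG, at -61 and -47 from the start, and 2 of the MYB form, at -25 and -8. Ldha held the full element TGACGTCA at -12, in which TGACG overlaps itself on the opposite strand, Gk2 held 1 MYB form at -7, and Pgk2 held none of the 3 motifs. Over the 250 bases before the start, 1.55% of 32851 promoter windows of all genes held TGACGTCA, 17.8% TGACG, 29.3% CNGTTG, 10.4% GTTGCC and 32.7% GGGCGG, the GC box, all searched on both strands. TGACG lies within TGACGTCA, and CNGTTG can overlap GTTGCC, as it did before Fbp1. Of the 8 members that were at least 2-fold lower, 1 held TGACGTCA, 2 held TGACG, 4 held CNGTTG, 2 held GTTGCC and 4 held GGGCGG in at least 1 of their windows. Of 25 members between the thresholds, 0 held TGACGTCA, 5 held TGACG, 12 held CNGTTG, 3 held GTTGCC and 16 held GGGCGG. These counts are by gene over all its windows, whereas the percentages are by single window, so they cannot be set side by side directly. A match is a run of letters and not a shown site. The genes Ldha (chr7:46842274-46855627) and Ldhc (chr7:46861263-46878147) lie side by side on the same strand.

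The pyruvate dehydrogenase complex leads pyruvate into the mitochondrial cycle, and of its 4 members compared here 3 lay below 0. Pdha2, the alpha subunit of germ cells, had 415 in UBR2-/- testes against 791.8 in wild type testes and was 1.91-fold lower. Dlat, the shared acetyltransferase core, had 261.1 against 462.3 and was 1.77-fold lower, with -0.82 to -0.74 over its 3 probe sets. Pdhb, the shared beta subunit, had 1063 against 1414.2 and was 1.33-fold lower, with -0.49 in its other probe set. None of the 3 reached 2-fold on the deposited scale. Pdha1, the X-linked alpha subunit, was on the other side, with 195.3 in UBR2-/- against 131 in wild type testes, and its probe sets gave log2 ratios of 0.58 and 0.71. The difference between Pdha2 and Pdha1 was thus -1.51, larger than the difference of either from Dlat or Pdhb. Dld, the shared dehydrogenase of the complex and no member of this set, had 518.4 in UBR2-/- against 493.1 in wild type testes, a log2 ratio of 0.07.

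The kinases that switch this complex off lay between the thresholds. Pdk3, which is X-linked, had 572.5 in UBR2-/- against 420.8 in wild type testes, a log2 ratio of 0.44. Pdk1 had 441.8 against 395.5, and its 2 probe sets gave 0.16 and 0.41. Pdk2 and Pdk4 were near the floor: Pdk2 had 21.1 in UBR2-/- testes, below the floor, and 28.2 in wild type testes, and Pdk4 had 19.3 and 25.7 and was too dim to be compared.

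In glycerol use, 2 of 3 members could be compared, and the germ cell enzyme was far below the other. Gk2, a glycerol kinase of germ cells, which phosphorylates glycerol and is needed in forming sperm, had 58 in UBR2-/- testes against 603.2 in wild type testes and was 10.4-fold lower in its 1 probe set, a log2 ratio of -3.38 that was bounded at -2.75 with the floor at the 60th percentile. Gpd1, the cytosolic glycerol phosphate dehydrogenase, had 78.2 against 74.3, a log2 ratio of 0.07, with 0.07 to 0.29 over the probe sets above the floor. Gpd2, the mitochondrial form, had 3.5 and 8.8, below the floor on both arrays. Gk, the X-linked general glycerol kinase, was not analysed here.

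The pentose phosphate pathway, which makes NADPH and ribose, held the 1 member that was at least 2-fold higher. Tktl1, an X-linked relative of transketolase used in germ cells before meiosis, had 962.6 in UBR2-/- testes against 355.7 in wild type testes and was 2.71-fold higher. Its 3 probe sets agreed, with log2 ratios of 1.25 to 1.44, the faintest at 70.9 against 26.7. Transketolase itself, Tkt, had 1106.1 against 922.4, a log2 ratio of 0.26 with 0.12 in the other probe set, and Taldo1, the transaldolase, had 517.4 against 412.7, a log2 ratio of 0.33. Pgd, which makes NADPH, had 627.3 in UBR2-/- and 633.5 in wild type testes by its brightest probe set, a log2 ratio of -0.01, and its 4 probe sets ran up to 0.33.

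Each isozyme was then set against its relatives, as a difference of log2 ratios, in which any single scaling factor between the arrays cancels. Of 11 listed pairs 6 could be compared, since Gapdhs was too dim and Gk and Pfkfb4 were not analysed here, and in 5 the isozyme lay below its relative. Ldhc stood in a pair with Ldha and in a pair with Ldhb, so the pairs are not all separate cases. Pgam2 differed from Pgam1 by -3.86 on the log2 scale (14.5-fold), Ldhc differed from Ldhb by -3.45 (10.9-fold), and Pgk2 differed from Pgk1 by -2.37 (at least 5.15-fold). Pdha2 differed from Pdha1 by -1.51 (2.84-fold). The pair of Ldhc and Ldha was the closest of these, at -1.19 (2.28-fold), since both were lower. Tktl1 went the other way, 1.17 above Tkt (2.26-fold). Across every combination of probe sets above the floor the differences kept their sign, with -2.54 to -2.00 for Pgk2 and Pgk1, -1.65 to -1.51 for Pdha2 and Pdha1 and 0.99 to 1.32 for Tktl1 and Tkt. The median over the 6 pairs was -1.94, which rests in part on the bound for Pgk2.

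**Figure D3:**
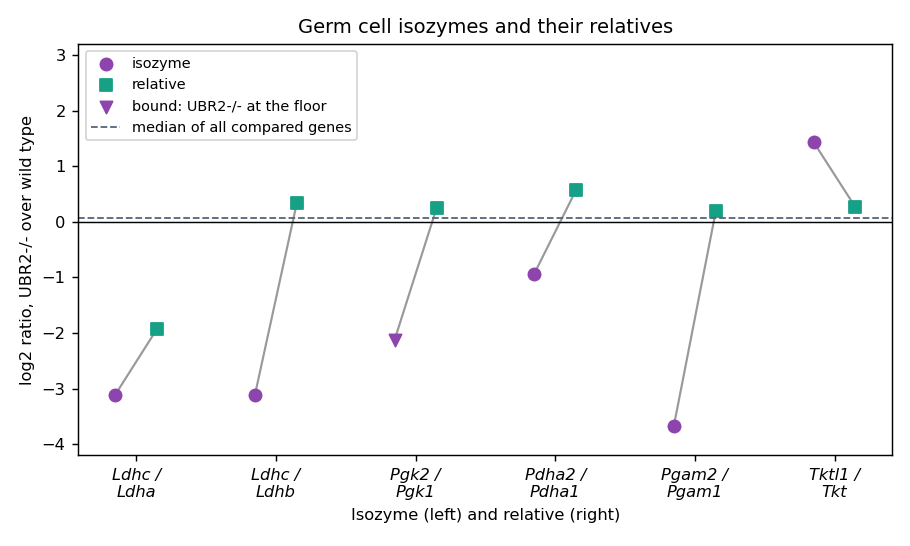
Log2 ratio of UBR2-/- over wild type of each isozyme (left, purple) and its relative (right, green), joined by a line, with a triangle where the UBR2-/- signal was at the floor and a dashed line at the median of all compared genes. The isozyme lies below its relative in 5 of 6 pairs, from -1.19 for Ldhc and Ldha to -3.86 for Pgam2 and Pgam1, and Tktl1 lies 1.17 above Tkt. Ldhc is drawn both with Ldha and with Ldhb.

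As groups, all 4 compared germ cell isozymes (Ldhc, Pgk2, Pdha2 and Gk2) lay below the all-gene median, 3 of them at least 2-fold lower. Their median log2 ratio was -2.61, which rests in part on the bound for Pgk2, whose UBR2-/- signal was below the floor. Pgam2 (-3.66) and Tktl1 (1.44), isozymes of the pairs above, were not counted in this group. The 8 compared general relatives were Ldha, Ldhb, Pgk1, Pdha1, Gapdh, Pgam1, Pfkfb3 and Tkt. They came from all listed pairs, so they are not matched to the 4 isozymes, and Gk2 had no relative among them. Of the 8, 7 lay above the all-gene median, Ldha was the exception, and their median was 0.28. Scaling on the bacterial and phage control transcripts instead, which had a median log2 ratio of 0.35, took the median of all genes to -0.28 and that of the general relatives to -0.071, so their place above 0 turns with the scaling. The X-linked members Pgk1, Pdha1, Pdk3 and Tktl1 had a median of 0.51, beside 0.35 for 274 X-linked genes and 0.06 for 7802 autosomal genes. The 31 autosomal members had a median of -0.01, with 8 at least 2-fold lower and 0 higher. Of all 7802 autosomal genes 285 were at least 2-fold lower and 17 higher, and of the 274 X-linked genes 0 were lower and 9 higher.

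**Figure D4:**
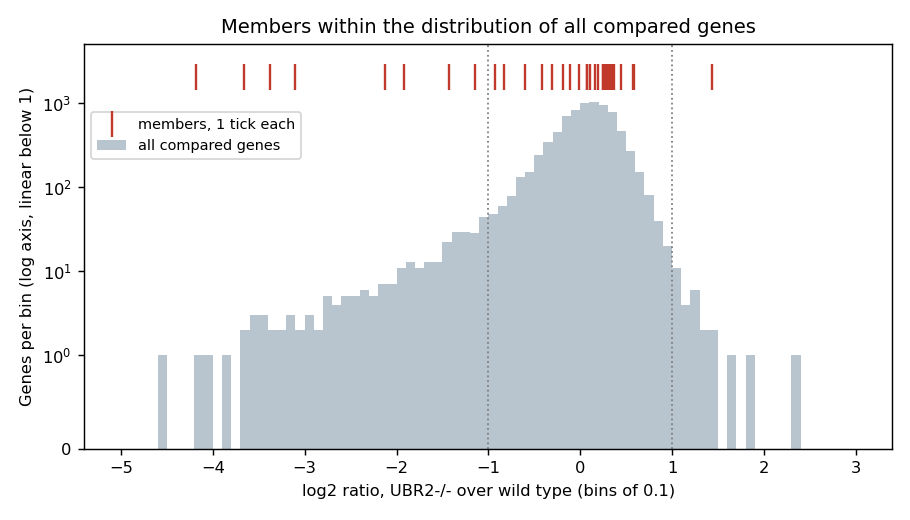
Number of compared genes per bin of 0.1 in log2 ratio of UBR2-/- over wild type (grey bars, log axis that is linear below 1) with 1 red tick for each of the 35 members at an arbitrary height and dotted lines at 2-fold. Most ticks lie within the peak around the median of 0.07, 8 lie left of the lower line and 1 right of the upper line.

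Markers of late spermatocytes were lower together with the germ cell enzymes. Of 14 compared markers of pachytene and later spermatocytes, 12 passed the lower 2-fold line and 2 did not, where 3.52% of all compared genes passed it. The list held no enzymes of this set. It was chosen with earlier results of these data known, so the count is no independent evidence. The median log2 ratio of these markers was -2.15, with a summed signal of 2468.4 in UBR2-/- against 9206.5 in wild type testes. Among them, Piwil1, a piRNA binding protein, had 78.5 in UBR2-/- against 578.5 in wild type testes, and the chaperone gene Hspa2 had 752.6 against 1405. Besides Piwil1, the 11 markers past the lower 2-fold line were Adam2, Adam3, Crisp2, Cct6b, Tcp11, Ccna1, Clgn, Zpbp, Meig1, Nme5 and Ropn1l, from -3.90 for Crisp2 to -1.07 for Ccna1. The values of Ccna1 and Adam3 are bounds, as their UBR2-/- signals of 9.3 and 13.7 were below the floor. The 11 compared genes of early meiotic prophase had a median of -0.06 and a summed signal of 9903 against 10576.7. Of these, 10 lay below the all-gene median of 0.07 and 1 above it. Sycp1 and Sycp3 of the synaptonemal complex had -0.11 and 0.02, and Spo11, which makes meiotic DNA breaks, was the 1 gene at least 2-fold lower. Spermatid markers were mostly dim, with 8 of 11 below the level for comparison, including Prm2, Tnp1, Tnp2, Akap4 and Odf1. Of the other 3, Tekt1 (-2.57) and Catsper2 (-1.22) were lower and Prm1 (1.41) was higher by at least 2-fold in their brightest probe sets, but the 3 probe sets of Prm1 ranged from 0.35 to 1.55. The part of these cell types in the lower signals of Ldhc, Pgk2, Gk2 and the other enzymes was not tested.

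Most Sertoli, myoid and spermatogonial markers lay above the all-gene median, on the side of the general enzymes. Leydig markers were split, and most macrophage markers lay below it. Of 12 compared Sertoli cell genes 10 were above the all-gene median, their own median being 0.31 and a summed signal of 12674.2 in UBR2-/- against 9894.3 in wild type testes, and Amh was the 1 gene at least 2-fold lower. The transcription factor genes Sox9 and Wt1 had 0.29 and 0.41. Peritubular myoid genes were above it in all 8 compared cases, at a median of 0.50 and sums of 5117.9 and 3616.6, with the contractile genes Acta2 and Myh11 at 0.49 and 0.64. Of the 7 compared Leydig cell genes 4 were above the all-gene median and 3 below it, with a median of 0.12 and sums of 1256.1 and 1216.8. Cyp11a1 had -0.59, and Star had 0.80 by its brightest probe set, with 0.11 to 0.84 over its 3 probe sets. Of the 9 compared spermatogonia genes 6 were above the all-gene median and 3 below it. They had a median of 0.26 and sums of 6380.7 and 5904.9, with Id4 at least 2-fold lower. Among them Zbtb16 and Kit had 0.02 and -0.07 by their brightest probe sets, but the other probe set of Kit gave 0.97. Of the 8 macrophage genes 2 were above the all-gene median and 6 below it. Their median was -0.15 and their sums 642 and 694.5, with Csf1r and Adgre1 at -0.02 and -0.24. Of 6 adipose markers 4 were too dim, with Adipoq at 33.8 and 8, while Fabp4 and Lpl had 0.67 and 0.44. All 4 erythrocyte markers on the array were below the floor. The part of these cell types in the small differences of Ldhb, Gapdh, Tkt and the other general enzymes was not tested.

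**Figure D5:**
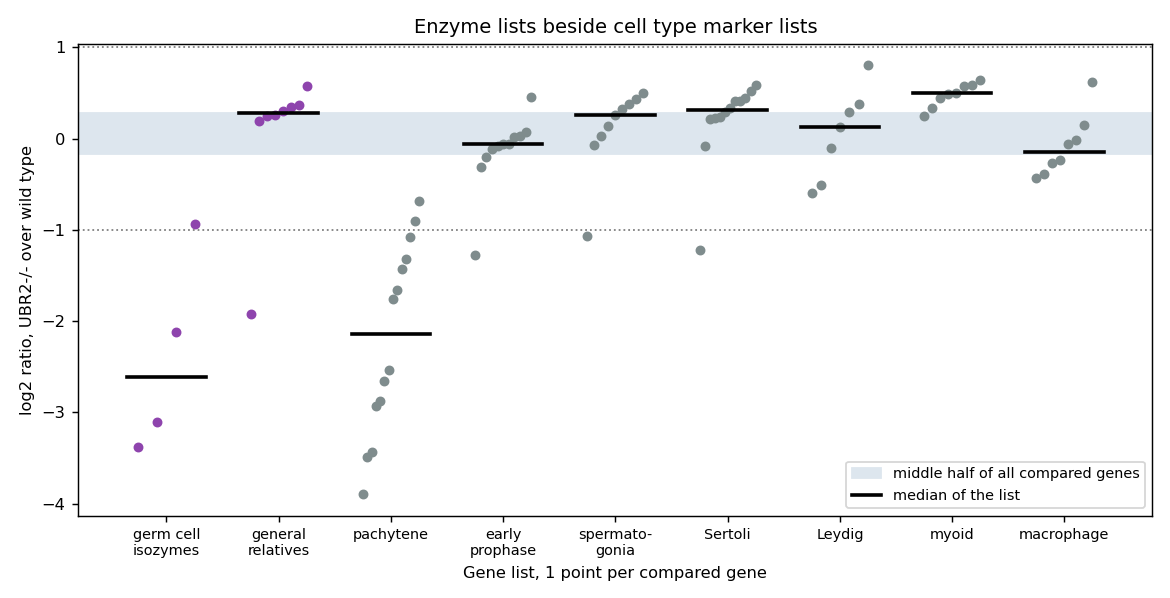
Log2 ratio of UBR2-/- over wild type of each compared gene (points) in the enzyme lists (purple) and in marker lists of testis cell types (grey), with a bar at each median, a band for the quartiles of all compared genes and dotted lines at 2-fold. The germ cell isozymes (median -2.61, with Pgk2 as a bound) and pachytene markers (-2.15) lie far below the band, and the general relatives (0.28) lie at its upper edge with Sertoli markers (0.31), apart from Ldha.

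Other enzymes of these pathways were taken from a list of 31 further genes. Of the 18 that could be compared 0 were at least 2-fold lower, 1 was at least 2-fold higher and 17 lay between, with a median of 0.04 beside 0.07 for all compared genes, of which 3.52% were lower and 0.346% higher. The 1 was Adpgk, an ADP-dependent glucokinase, with 55.4 in UBR2-/- against 27.6 in wild type testes, near the floor, and its other probe set gave -0.58.

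The probe sets of a member mostly lay on the same side. Of 17 compared members with at least 2 probe sets above the floor, 14 had all of them on the same side of 0, and the median distance between the lowest and highest log2 ratio was 0.14. The exceptions were Pcx, Pgd and Pgk1, and the widest spread was 0.54, for Pgk1. Of the 8 members that were at least 2-fold lower, Ldhc alone had 2 probe sets above the floor.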

How the data were processed

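Total RNA of testes from 1 sample per genotype was labelled with biotin and hybridised, per the labels, to an Affymetrix array of mouse transcripts. The deposited intensity values are linear signals per probe set. The submitters' processing notes name MAS5 without a version or settings, and neither detection calls nor a genome build is stated in the sources used here. Both deposited columns had a 2% trimmed mean of 150.04, and this scaling was kept.

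Of 22690 probe sets, 20393 carried a single gene symbol, 691 carried more and 1606 carried none, by a platform annotation that may be out of date, and 20364 matched the GRCm38.p6 gene table by Entrez identifier. Control probe sets with a mouse gene symbol were kept. A gene was compared where its brightest probe set averaged no less than the mean floor of both arrays, and called at 2-fold. Every member is named. Other genes are named by list: pathway genes beyond 2-fold with Gk, and the first 2 compared markers of a list with those beyond 2-fold. Dld and markers that were too dim are named outside this rule, after their values were seen. Members and lists were chosen with earlier results of these data known. The procedure was tested on simulated data. Python 3.11.15, pandas 2.3.3 and statsmodels 0.14.6 were used. Promoter windows for 34 of the 35 compared members came from RefSeq. The number of arrays limits the precision.

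Alternatives were array median, quantile, loess (span 0.3) and spike-in scaling, floors at the 25th and 60th percentiles, a pseudocount of 10 without a floor, averaging probe sets, dropping probe sets ending in _s_at, _x_at or _a_at, and thresholds of 1.5-fold and 3-fold.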

Additional observations from a re-analysis of the deposited data

How the results depend on the processing

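With 1 array per genotype no setting gives a test. No paired analysis was possible because each genotype had 1 array. The 8 members at least 2-fold lower remained the same genes under array median scaling, quantile normalization, loess, the lower floor (40 compared members) and the pseudocount (43). With spike-in scaling they were 10, by Pdha2 and Dlat. With the higher floor 6 of 28 compared members were left, without Pfkp and Pgk2, with the mean over probe sets 7, without Pfkp, whose other probe set was below the floor, and without probe sets that can bind several transcripts 7 of 24, without Ldha, which then had none. At 1.5-fold there were 11 and at 3-fold 6. Tktl1 was the 1 higher member throughout, except at 3-fold, with 0. Over all 8092 compared genes, the count of lower and higher genes was 285 (3.52%) and 28 (0.346%), against 528 (6.53%) and 7 with spike-in scaling, 402 (4.1%) and 132 (1.35%) of 9803 with the lower floor, 152 (2.63%) and 8 (0.138%) of 5789 with the higher floor, 324 (2.61%) and 56 (0.452%) of 12394 with the pseudocount, 316 and 17 with loess, 237 and 19 with the mean over probe sets, 624 and 344 at 1.5-fold and 121 and 3 at 3-fold.

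The median of the germ cell isozymes, -2.61, was -2.97 with spike-in scaling, -3.11 with the lower floor and -3.06 with the pseudocount. That of the general relatives, 0.28, was -0.071 with spike-in scaling. The median difference within pairs, -1.94, was -1.51 with the lower floor, with the higher floor and without probe sets that can bind several transcripts, and -1.46 with the pseudocount. The compared pairs were not the same in these settings. Pgk2 was not compared with the higher floor. Ldha, Ldhb and Pgam1 had no probe set left without those that can bind several transcripts. With the lower floor more members were compared, and with the pseudocount all that had a probe set. Gapdhs was compared in both settings. Its dim signals of 14.4 in UBR2-/- and 6.2 in wild type testes put it above 0, unlike the other germ cell isozymes. The value of -1.51 is that of the pair of Pdha2 and Pdha1, whose log2 ratios stayed the same with both floors and that filter. With the higher floor the log2 ratios of Fbp1, Pgam2 and Gk2 became bounds of -3.36, -2.19 and -2.75, because their UBR2-/- signals then lay below it, and with the lower floor that of Pgk2 was bounded at -3.66. With spike-in scaling 14 members with log2 ratios of 0.07 to 0.34 turned below 0. Otherwise Gpd1 turned with loess, Pcx with the mean over probe sets and without probe sets that can bind several transcripts, and Pgd with the mean over probe sets.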
